A study of Homo sapiens with 2 samples.

Results

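The genes described here encode the eukaryotic translation initiation factors, the proteins that bring a ribosome, an mRNA and the initiator tRNA together at a start codon. They were chosen by name: every array probe set that the platform annotation pairs with exactly 1 gene symbol, where that symbol begins with EIF and a digit. This gave 131 of 54675 probe sets and 53 gene symbols, of which 49 encode proteins and 4 are non-coding transcripts named after a neighbouring EIF gene. The family was taken up with results from these arrays already known, so every value below is a description and no test was made.

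Expression was profiled in C33-A, an established human cell line from a carcinoma of the cervix. The CA9 line was stably transfected with a pcDNA3.0 construct that holds the full-length human CA9 cDNA, which encodes the acid-producing enzyme carbonic anhydrase IX, and the vector line was stably transfected with empty vector. Both lines were kept in RPMI with 10% serum at 5% CO2, and RNA was taken on the fourth day after seeding and hybridised to Affymetrix arrays, 1 array per line. Nothing in the labels says whether either line is 1 clone, and the comparison asks how these lines differ. The transgene's own level was not analysed here, so it does not check the labels.

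Initiation works in steps carried by different complexes. eIF2 binds GTP and carries the initiator tRNA to the small ribosomal subunit, eIF2B recharges eIF2 with GTP, and the EIF2AK kinases phosphorylate eIF2 under stress so that it blocks eIF2B. eIF3 is the large scaffold on the small subunit. In the cap-binding complex, eIF4E holds the cap of the mRNA, eIF4G bridges it to eIF3, and the helicase eIF4A opens the leader, while eIF4E-binding proteins compete with eIF4G for eIF4E until mTOR phosphorylates them.

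Each line was measured on a single array, and how far its cultures vary is unknown. Values are the deposited intensities, a linear brightness per probe set, and a pair of them is always given as the CA9 line against the vector line. A difference is the log2 intensity of the CA9 line minus that of the vector line, taken in the brightest probe set of each gene. A gene counted as measurable when its higher array lay above a floor of 40.8, the median over both arrays with control probe sets left out. The differences of a gene's own probe sets scattered around the gene's mean with a pooled SD of 0.31 over 6186 genes and of 0.26 over the 27 members with several probe sets above the floor. All of them read the same RNA on the same array, so this SD holds no variation between cultures.

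The labelled epithelial origin was weakly marked in both lines. Of 6 epithelial markers 4 were measurable, the brightest being KRT7 at 193 against 172, with KRT8 at 101 against 68.3. EPCAM and CDH1 lay below the floor on both arrays. Measurable markers of other cell types numbered 5 of 6 for fibroblasts, 3 of 5 for blood (4 with a value) and 2 of 4 for endothelium. The fibroblast marker COL3A1 was the brightest marker in these lists, at 2538 against 2339. None of the 14 measurable markers in these lists passed 2-fold. In the blood list PTPRC read 30.1 against 58.1 and CD14 57.1 against 36.9, in opposite directions, each with its lower value below the floor. Taken against the floor, the difference was at least 1.42-fold for PTPRC and at least 1.4-fold for CD14. The median differences were 0.35 for epithelium, 0.12 for fibroblasts, -0.14 for blood and 0.20 for endothelium. On the array controls, the 3' minus 5' log2 signal of ACTB was 0.67 against 0.73, and the 3 probe sets for 18S ribosomal RNA differed by -2.15 to -0.92. The hybridisation spike-ins had a median difference of 0.41, with 17 of 18 probe sets above 0, which is larger than most member differences and opposite in sign to the family's median. The part of these measures in the results below was not tested.

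Promoter sequences are shown first because they are a feature that the choice of members did not use. Many mRNAs of the translation machinery begin with a terminal oligopyrimidine (TOP) tract, a C at the first transcribed base followed by further C or T bases, through which mTOR controls their translation. Of the 49 members 41, measurable or not, had an entry in the RefSeq promoter table (GRCh38.p14). Of these, 9 had an annotated start with a C followed by at least 4 more pyrimidines (22.0%). The share was 6.79% of the 11001 measurable genes with an entry. Among the measurable members with an entry, 8 had a tract and 31 had none. By complex, the tract stood at a start of 4 of 8 EIF3 genes with an entry, 3 of 9 EIF2 genes, 2 of 11 EIF4 genes, 0 of 10 of the remaining factors and 0 of 3 EIF2AK kinases. Each sequence printed here runs from 30 bases before the annotated start to 15 bases after it, on the coding strand. The capitals mark the pyrimidine tract from the first transcribed base, or the first 5 transcribed bases where there is no tract. The 8 measurable members with a tract come first, followed by the cap-binding genes EIF4E and EIF4E3 and the scaffold gene EIF4G1, on which the values below turn.
EIF2A, chr3:150546757-150546801, plus strand: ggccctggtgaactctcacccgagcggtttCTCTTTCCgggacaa
EIF2D, chr1:206612451-206612495, minus strand: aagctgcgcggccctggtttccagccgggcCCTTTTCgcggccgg
EIF2S3, chrX:24054926-24054970, plus strand: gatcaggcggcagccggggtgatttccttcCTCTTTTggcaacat
EIF3D, chr22:36529152-36529196, minus strand: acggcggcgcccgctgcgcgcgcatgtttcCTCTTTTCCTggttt
EIF3F, chr11:7987307-7987351, plus strand: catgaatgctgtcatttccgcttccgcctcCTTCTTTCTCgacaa
EIF3K, chr19:38619158-38619202, plus strand: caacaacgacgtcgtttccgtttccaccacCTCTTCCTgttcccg
EIF3M, chr11:32583801-32583845, plus strand: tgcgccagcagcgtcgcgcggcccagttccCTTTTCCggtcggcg
EIF4B, chr12:53006426-53006470, plus strand: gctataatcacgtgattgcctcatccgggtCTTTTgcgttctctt
EIF4E, chr4:98929119-98929163, minus strand: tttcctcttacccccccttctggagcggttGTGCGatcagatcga
EIF4E3 (1 of 3 annotated starts), chr3:71754759-71754803, minus strand: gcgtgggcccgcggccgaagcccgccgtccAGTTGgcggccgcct
EIF4G1 (1 of 3 annotated starts), chr3:184314576-184314620, plus strand: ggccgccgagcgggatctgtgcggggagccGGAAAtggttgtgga
The tracts ran from 5 pyrimidines in EIF4B to 10 in EIF3D and EIF3F. None of the 3 starts listed for EIF4E3 or the 3 for EIF4G1 had a tract, and neither did EIF4E.

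Most initiation factors were measurable, and as a family they lay slightly below 0. Of the 49 protein-coding members 47 were measurable, among 13823 measurable genes of 19775. EIF4A2 was not, since its only probe set with a single symbol read 11.6 and 10.8, and the Y-linked EIF1AY is counted without its level. In the CA9 line 35 of the 47 were lower and 12 higher, 74.5% lower against 53.0% of all measurable genes, and their median difference was -0.16 against -0.03. Abundant genes as a whole also leaned that way: 26 members had a mean intensity above 1000, of which 19 were lower (73.1%), against 61.5% of the 1014 genes that bright. The medians there were -0.12 and -0.06.

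The differences were small. Only EIF4E3 was lower by 2-fold or more and no member was higher by that much, where 0.694% and 0.651% of measurable genes were (1.35% in either direction). At 1.5-fold or more, EIF4E3 and EIF1AD were lower and none was higher, against 4.74% and 5.29% of measurable genes (10.0% in either direction), so 2 lower of 47 is near the background. None of the 26 brighter members passed 1.5-fold, and among genes that bright 0.789% were lower and 1.18% higher by that much. For 33 of the 47 the difference was smaller than the SD between probe sets. The other 14, 11 lower and 3 higher, stand beside 18.4% of measurable genes that were lower by at least that SD and 17.0% that were higher. They were EIF4E3, EIF1AD, EIF5A2, EIF5, EIF4E2, EIF4EBP2, EIF2AK3, EIF4ENIF1, EIF4E, EIF2AK1 and EIF4EBP1 on the lower side, and EIF4G1, EIF2D and EIF2B1 on the higher side. Of these 14, 7 belong to the EIF4 group: the 3 cap-binding and 3 inhibitory or transporting eIF4E-binding genes, all lower, and the scaffold EIF4G1, higher.

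**Figure D1:**
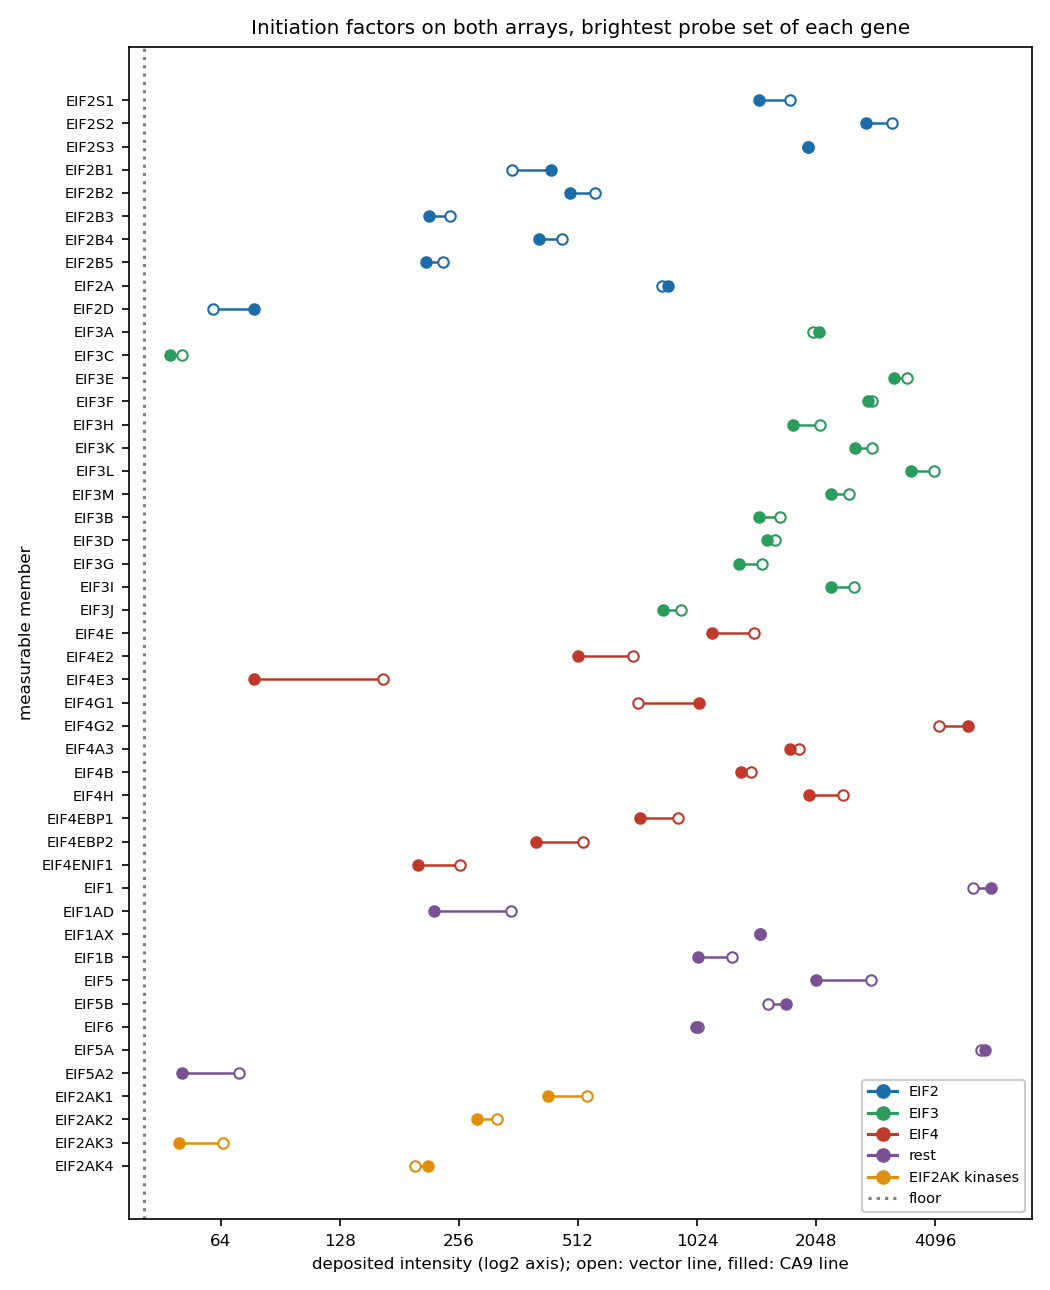
Deposited intensity (log2 axis) of the 47 measurable members in the vector line (open circles) and the CA9 line (filled circles), 1 array each, coloured by complex, with the floor of 40.8 dotted. EIF4E3 has the longest line, from 165 to 77.8, whereas the EIF3 genes have short lines that mostly run to the left.

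The cap-binding proteins were lower in the CA9 line in all 3 genes measured. EIF4E, the cap receptor, read 1120 against 1424, a difference of -0.35. Its other probe sets above the floor lay at -0.13, -0.16 and 0.15. Among the EIF4E probe sets above the floor, the brightest thus gave the largest difference. EIF4E2, a relative that binds the cap but not eIF4G and is known for repressing translation, had 512 against 706 and a difference of -0.46. A second probe set of EIF4E2, at 308 against 428, lay at -0.48, and the remaining pair at -0.27 and 0.09. Without probe sets named _x_at or _s_at, which can detect more than 1 transcript, EIF4E2 was represented by the one at 0.09.

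EIF4E3, the other cap-binding relative, showed the largest difference in the family. It read 77.8 against 165, a 2.12-fold lower value at a difference of -1.08. A second probe set, at 90.0 against 122, lay at -0.44, so the size depends on the probe set. The remaining pair lay below the floor on both arrays and gives no direction. Averaging all 4 probe sets, those included, gave -0.79, which is short of 2-fold.

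The 2 scaffold genes with a value went the other way. EIF4G3, another scaffold gene, had no value here. EIF4G1, the main bridge between eIF4E, eIF4A and eIF3, read 1035 against 727, 1.42-fold higher at a difference of 0.51. Its second probe set read 239 against 137, 1.74-fold higher at 0.80. Both probe sets of EIF4G1 were thus higher, and their average of 0.65 passed 1.5-fold. EIF4G2, also called DAP5, a related scaffold that lacks the eIF4E-binding region, had 4963 against 4181 and a difference of 0.25, with a second probe set above the floor at 0.21. EIF4G1 and EIF4G2 were the only measurable members of the EIF4 group above 0.

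The proteins that bind eIF4E and keep it from eIF4G were lower in the CA9 line, as eIF4E was. EIF4EBP1 read 736 against 917 and a difference of -0.32 in its only probe set. EIF4EBP2 had 401 against 528 at -0.40, and its 3 other probe sets above the floor lay between -0.46 and -0.11. EIF4ENIF1, the transporter that carries eIF4E into the nucleus and to processing bodies, had 201 against 258 at -0.36. These 3 differences lay within 0.08 of each other and short of 1.5-fold.

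The 3 measurable genes of the helicase group were lower by differing amounts. Neither eIF4A helicase of cap binding is among them. EIF4A1 was not analysed here, and EIF4A2 lay below the floor in its only probe set with a single symbol. That probe set alone does not show that EIF4A2 was unexpressed. EIF4A3, a helicase of the exon junction complex rather than of cap binding, had 1756 against 1855, a difference of -0.08. EIF4H, an RNA-binding helper of the helicase, had 1962 against 2404, a difference of -0.29. EIF4B, the other helper, read 1322 against 1401 at -0.08 and 836 against 926 at -0.15. The last EIF4B probe set, much dimmer at 87.3 against 192, lay at -1.14. It was 1 of 2 member probe sets at least 2-fold lower among the 102 above the floor (0.782% of all such probe sets), and no member probe set was as much higher (0.749%). With all 3 averaged, EIF4B stood at -0.46. Its start carries the shortest of the pyrimidine tracts printed above.

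As a group the 11 measurable EIF4 genes had a median difference of -0.32, with 9 lower and 2 higher. Under the 7 alternative settings the group's median ran from -0.38 to -0.16.

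**Figure D2:**
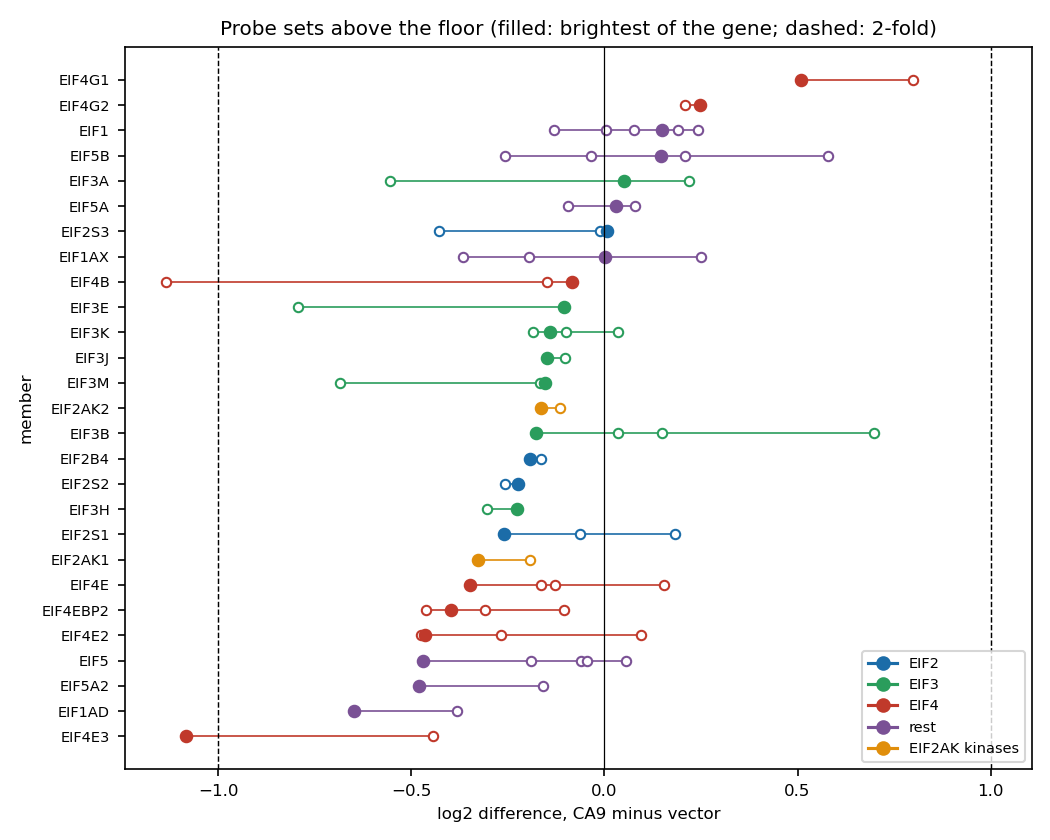
Log2 difference, CA9 minus vector, of each probe set above the floor for the 27 members with several, with the brightest filled, others open, and dashed lines at 2-fold. Both EIF4G1 probe sets and both EIF4G2 probe sets lie above 0, the EIF4E3 pair lies below it, and EIF4B has 1 dim probe set at -1.14 apart from the others.

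The eIF3 subunits stayed close together. All 13 were measurable, and their differences ran only from -0.23 in EIF3H to 0.05 in EIF3A. Of these, 12 lay below 0, although EIF3D, EIF3F and EIF3A lay so near 0 that their sign changed with the scaling. Their SD was 0.08, against 0.23 for all genes with a mean intensity above 1000, and 11 of the 13 were that bright. The exceptions were EIF3J and EIF3C, whose only single-symbol probe set read 47.7 against 51.1. None passed 1.5-fold. The median was -0.15 for the group, and it stayed below 0 under the 7 alternatives, from -0.21 to -0.09.

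Within eIF3, the octamer core holds the subunits a, c, e, f, h, k, l and m. EIF3A, the largest subunit and the backbone of the core, read 2085 against 2014. EIF3H had 1797 against 2103, the largest difference among the brightest probe sets of the complex. EIF3L had 3568 against 4064, a difference of -0.19. EIF3E had 3230 against 3473, EIF3F 2779 against 2836, EIF3K 2571 against 2837 and EIF3M 2231 against 2480, all within 0.16 of 0. EIF3F, at -0.03, was the nearest to 0.

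The 5 peripheral subunits lay below 0 in their brightest probe sets, from -0.20 to -0.06, with the sign of EIF3D open to the scaling. EIF3I had 2233 against 2557, at -0.20. EIF3G had 1306 against 1493 at -0.19, and EIF3J, a loosely bound subunit, 843 against 934 at -0.15. EIF3D, which can itself bind the cap of some mRNAs, had 1542 against 1611 at -0.06. EIF3B, the hub of the peripheral module, had 1472 against 1664 at -0.18 in its brightest probe set, but its 3 other probe sets above the floor were higher, at 0.03, 0.15 and 0.70. The direction for EIF3B therefore depended on the probe set.

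Some dim probe sets of eIF3 genes departed from the bright ones and others did not. In EIF3H, EIF3J and EIF3K the dimmest above the floor lay at -0.30, -0.10 and -0.10, near the brightest of each gene. For EIF3E a probe set at 41.2 against 71.3 lay at -0.79, and an EIF3M probe set read 33.9 against 54.4, below the floor in the CA9 line, so its difference is uncertain. A dimmer EIF3A probe set, at 261 against 384, lay at -0.56, while the other lay at 0.22. The EIF3B probe set at 0.70 was dim as well, at 74.2 against 45.8. Among the 102 member probe sets above the floor, 5 were at least 1.5-fold lower and 2 at least 1.5-fold higher, against 5.69% and 5.81% of all such probe sets, with that EIF3M probe set counted among the 5. Both of the higher ones were named above, in EIF4G1 and EIF3B.

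Genes with a pyrimidine tract differed little between the lines. The 8 measurable members with a tract had a median difference of -0.05 and a range from -0.15 to 0.34, and the 31 measurable members with an entry and no tract had a median of -0.18. Over all measurable genes with an entry the medians were -0.05 with a tract and -0.05 without. The 4 EIF3 genes printed with a tract lay between -0.15 and -0.03, and EIF2S3 at 0.01. Absence of a tract at an annotated start says only that those letters are not there.

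The eIF2 trimer, which carries the initiator tRNA, was level to slightly lower. EIF2S1, the alpha subunit that the EIF2AK kinases phosphorylate, read 1468 against 1759, a difference of -0.26. Its other probe sets lay at -0.06 and 0.18. EIF2S2, the beta subunit, had 2736 against 3197 at -0.22, with a second probe set at -0.26. EIF2S3, the GTP-binding gamma subunit, had 1960 against 1951 at 0.01, and its other probe sets lay at -0.01 and -0.43. The sign of EIF2S3 changed with the scaling.

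Among the subunits of the exchange factor eIF2B, only EIF2B1 was higher. EIF2B1, of the regulatory part, had 437 against 348, a difference of 0.33. EIF2B2 had 489 against 567 at -0.21, and EIF2B3, EIF2B4 and EIF2B5 lay between -0.19 and -0.14. EIF2B4 repeated this in its second probe set at -0.16. The other factors that can deliver a tRNA to the ribosome were above 0: EIF2D had 77.5 against 61.2 at 0.34, near the floor, and EIF2A 866 against 835 at 0.05. EIF2A lay on either side of 0 depending on the scaling. The 10 EIF2 genes together had a median of -0.16.

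Of the EIF2AK kinases, 3 of 4 were lower and none passed 1.5-fold. EIF2AK1, the haem-regulated kinase HRI, read 431 against 540, a difference of -0.33, and its second probe set lay at -0.19. EIF2AK2, the kinase PKR that senses double-stranded RNA, had 285 against 320 at -0.16, with a second at -0.12. EIF2AK3, the kinase PERK of the endoplasmic reticulum, had 50.2 against 64.7 at -0.36, close to the floor. EIF2AK4, the kinase GCN2 that senses uncharged tRNA, had 214 against 198 at 0.11. The sign of each of these 4 was the same under the 3 other scalings.

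**Figure D3:**
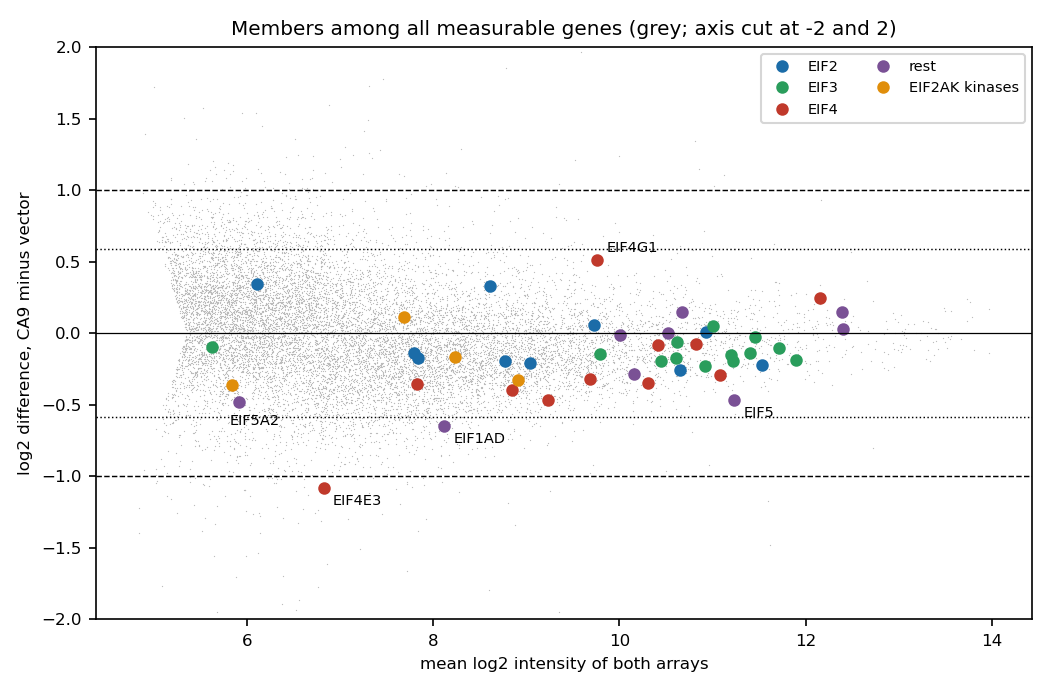
Log2 difference, CA9 minus vector, against mean log2 intensity for the 13823 measurable genes (grey) and the 47 measurable members (coloured), with dashed lines at 2-fold and dotted lines at 1.5-fold. The members cluster at the bright right side just below 0, and EIF4E3 at -1.08 and EIF1AD at -0.65 are the only ones outside the dotted lines.

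The remaining factors include those that act at the start codon and when the subunits join. EIF1, which guards start codon choice, read 5675 against 5121, a difference of 0.15, and 4 of its 5 other probe sets above the floor were higher too. The exception, at -0.13, was the only one of them not named _x_at or _s_at. Its paralog EIF1B had 1032 against 1257, a difference of -0.28. EIF1AX, which helps the small subunit scan, had 1477 against 1475 in its brightest probe set, and its others ran from -0.37 to 0.25. EIF1AD, a protein with an eIF1A-like domain, had 222 against 347, 1.57-fold lower at -0.65, and its second probe set lay at -0.38. Under quantile normalization EIF1AD lay at -0.55, with an intensity trend removed at -0.54 and as an average at -0.52, all short of 1.5-fold.

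EIF5, the protein that makes eIF2 hydrolyse GTP once the start codon is found, had 2043 against 2828, a difference of -0.47. The 4 other probe sets of EIF5 ran from -0.19 to 0.06, so the brightest stood apart from them, and their average with it was -0.14. EIF5B, the GTPase that joins the large subunit, had 1718 against 1553 at 0.15. Its other probe sets above the floor ran from -0.26 to 0.58, and the one kept when _x_at and _s_at sets were dropped was at -0.26. EIF6, which keeps the subunits apart, had 1021 against 1033 at -0.02, a value whose sign changed with the scaling. EIF5A, the hypusine-bearing factor, had 5477 against 5363 at 0.03, while its paralog EIF5A2, close to the floor, had 51.0 against 71.1 at -0.48. The sign of EIF5A, like that of EIF1AX, changed with the scaling. The median of these 9 genes was -0.02 and changed sign with the scaling, from -0.08 with equal medians to 0.07 with the intensity trend removed. It was -0.19 without probe sets named _x_at or _s_at.

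Scaling changed the sign of few members. Of the 47 members, 32 were lower and 7 higher with the values as deposited and under the 3 other scalings alike. The 8 whose sign changed all lay within 0.063 of 0 as deposited. The 7 that were higher throughout were EIF4G1, EIF2D, EIF2B1, EIF4G2, EIF1, EIF5B and EIF2AK4. After both arrays were brought to the same median, 40 of 47 were lower (85.1%, against 61.1% of all measurable genes), and with the intensity trend removed 32 of 47 were lower (68.1% against 49.6%).

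The neighbours of the pathway, held no gene at 2-fold in its brightest probe set. Among 22 measurable partners of initiation without an EIF name, which bind the mRNA tail, the cap or the small subunit, the median was -0.04. None passed 1.5-fold in its brightest probe set. The helicase gene DHX9 was farthest from 0, with 350 against 497 at -0.51, and its remaining probe sets above the floor included 1 at -0.82 and 1 at exactly 0. BZW1, a regulator of start codon choice, had 2114 against 2702 at -0.35. LARP1, which binds TOP mRNAs, had 1758 against 1413 at 0.32, and its 3 other probe sets lay at 0.54, 0.71 and 0.73. PABPC1, the main poly(A)-binding protein and a partner of eIF4G, had 5927 against 5034 at 0.24.

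The list of 22 measurable genes of mTOR and MNK control, which act on the eIF4E-binding proteins and on eIF4E, was split evenly, 11 lower and 11 higher, with a median of -0.02. DDIT4, an mTORC1 inhibitor, was the only member past 1.5-fold in its brightest probe set, with 71.8 against 111 at -0.63. Over all measurable genes 4.74% were lower by 1.5-fold or more. MLST8, a subunit of both mTOR complexes, had 301 against 206 at 0.55. The mTORC1 subunits RPTOR and AKT1S1 lay at 0.42 and 0.46, and RICTOR of mTORC2 lay at -0.44 in 1 probe set and exactly 0 in another. Other genes of the list went either way. The kinase gene MTOR lay at -0.15, RHEB at -0.08, and LAMTOR2, LAMTOR3 and LAMTOR5 between -0.39 and -0.28. LAMTOR4, RRAGA, RRAGC and RRAGD lay between 0.01 and 0.19 in their brightest probe sets. A second RRAGD probe set read 26.4 against 57.1, below the floor in the CA9 line, at -1.11. Other RHEB probe sets went either way, among them 1168 against 897 at 0.38 and 77.5 against 99.6 at -0.36.

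Around eIF2, 8 of 10 measurable phosphatase and sensor genes were lower, with a median of -0.15, where 53.0% of all measurable genes were lower. PPP1R15A, the inducible subunit that directs phosphatase to eIF2, was the only gene of this list past 1.5-fold in its brightest probe set. It read 262 against 170 at 0.62, with a second probe set at 0.44. Over all measurable genes 5.29% were higher by 1.5-fold or more. PPP1CC, a catalytic phosphatase subunit, had 2389 against 3457 at -0.53. The list of ATF4, whose translation increases when eIF2 is phosphorylated, and its targets held 15 measurable genes. None passed 1.5-fold in its brightest probe set and the median was -0.04, with ASNS at -0.37, SLC7A11 at 0.35 and ATF4 itself at 2249 against 2224. Other probe sets differed more: a second SLC7A11 probe set, whose vector value was below the floor, read 54.5 against 24.2. ATF5 had 304 against 313 in its brightest probe set and 283 against 102, a difference of 1.47, in another.

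Later steps of translation were similar. The 6 measurable elongation factors had a median of -0.10, with EEF1A2 at 2468 against 1696 and 0.54 and EEFSEC at -0.16. The 5 measurable termination and recycling factors had a median of 0.08, with GSPT1 at 0.23 and ABCE1 at 0.21. Other probe sets of GSPT1 ran from -0.46 to 0.04, and a second of ABCE1 lay at -0.12, so both directions depended on the probe set. The 8 mitochondrial factors had a median of -0.05, with TSFM at -0.24 and MTRF1L at 0.24. None of these lists held a gene past 1.5-fold in its brightest probe set. Dimmer probe sets of TSFM lay at -0.69, with its CA9 value below the floor, and at 0.62, and 1 of TUFM lay at -0.61.

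**Figure D4:**
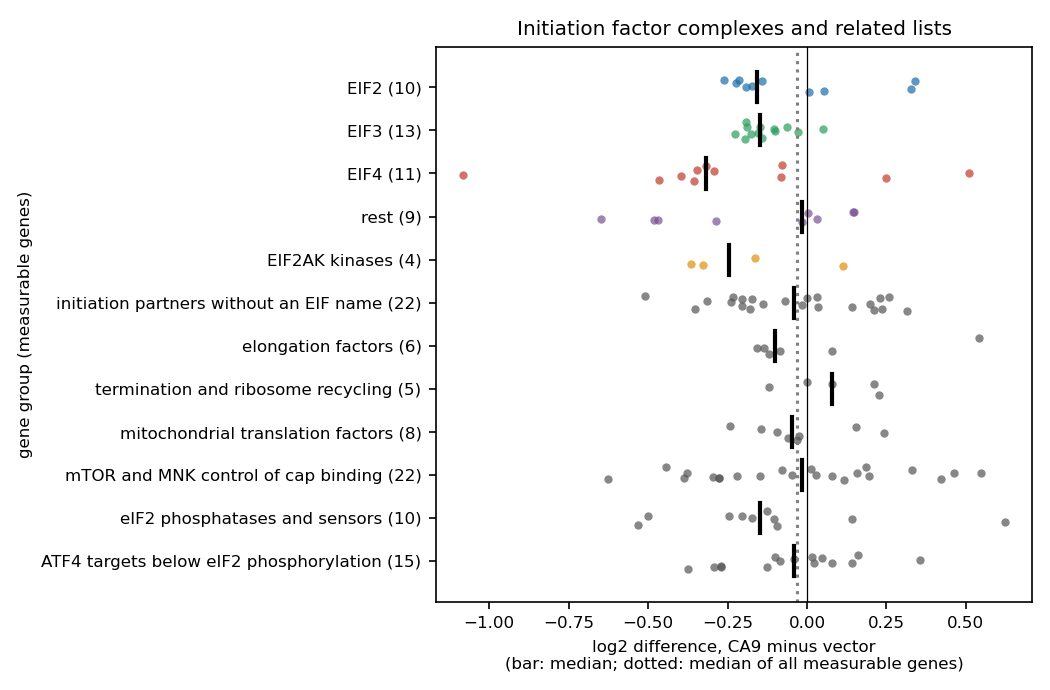
Log2 difference, CA9 minus vector, of each measurable gene in the initiation factor complexes (coloured) and the related lists (grey), with a bar at each median and a dotted line at the median of all measurable genes, -0.03; the vertical scatter is only for legibility. The EIF3 genes form the tightest cluster, and the EIF4 genes the widest, from -1.08 to 0.51.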

How the data were processed

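The authors deposited 1 linear intensity for each probe set on each array. The submitters' processing notes name RMA, without a version, and the background setting is not given in the sources used here. Values ran from 6.79 to 17091, a range that fits a linear scale and not log2. Array medians were 41.8 (CA9) and 40.1 (vector), and 1425 probe sets had exactly equal values. Log2 was taken without a pseudocount. Probe sets with several symbols were left out, 10 with an EIF symbol among them, so EIF4A1 has no value here. Of 41091 single-symbol probe sets 41037 matched RefSeq identifiers. Members and lists were chosen with earlier results of these data known. The rule named in full each member past 2-fold or 1.5-fold and the highest and lowest of each group, and from each list the called members, filled to 2 with those farthest from 0. The remaining members' values, and LARP1, PABPC1, RPTOR, AKT1S1, RICTOR, ATF4, ATF5, TUFM and the markers, were added after their values were seen. So were MTOR, RHEB and the LAMTOR and RRAG genes. Probe sets of near-identical genes may share signal. The size rule was run on simulated data with normal noise of the SD between probe sets. That SD holds no variation between cultures, so the run does not show how the rule performs on these lines. Promoters were searched on the coding strand at the start for the TOP tract. Python 3.11.15, numpy 2.4.6, pandas 2.3.3, statsmodels 0.14.6 and matplotlib 3.10.9 were used. The number of arrays limits the precision. Alternatives were the probe set rule, the floor and the scaling.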

Additional observations from a re-analysis of the deposited data

How the results depend on the processing

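No leave-one-out and no replicate comparison can be made with 1 array per line. No paired analysis was possible because each group has 1 sample and no test was made. The single member at least 2-fold lower became 0 when all probe sets per gene were averaged. The 0 members at least 1.5-fold higher became 1 with averaging (EIF4G1), 1 without probe sets named _x_at or _s_at (EIF3B) and 1 with the intensity trend removed (EIF4G1). The 2 members at least 1.5-fold lower became 1 with averaging, 1 with quantile normalization and 1 with the trend removed, EIF4E3 each time, and 3 without probe sets named _x_at or _s_at. In each case the cause was not tested. Setting medians equal gave 69 higher and 123 lower genes at 2-fold among all measurable genes, in place of 90 and 96, and averaging gave 44 and 48. The median of the members ran from -0.23 to -0.09 over the 7 alternatives, and no median of a complex moved by more than the SD between probe sets. Of 322 values of single members under the alternatives, 314 moved by less than that SD and 8 by more. These were EIF3E, EIF4B and EIF5 with averaging and EIF3A, EIF3B, EIF3E, EIF4E2 and EIF5B without probe sets named _x_at or _s_at. The other settings include some that could not move a member that far. A changed floor leaves each member's difference as it was, and equal medians shift all members by the same small amount. The count of 314 is therefore no measure of stability. Members that fell below the floor under a setting have no value there. Members near the floor, such as EIF5A2, EIF2AK3, EIF2D and EIF3C, are limited by signal over background.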

Other observations

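The non-coding genes with an EIF name were dim. EIF1B-AS1, antisense to EIF1B, read 104 against 84.0, a difference of 0.31, and a second probe set at 51.3 against 47.6 lay at 0.11. EIF1B lay at -0.28. EIF3J-DT had 63.8 against 68.2, EIF2AK3-AS1 lay at -0.08, and EIF2AK3-DT lay below the floor on both arrays. The 10 probe sets paired with an EIF symbol and at least 1 other symbol had differences from -1.12 to 0.15, 9 of them above the floor. The brightest read 7060 against 7228, so a dim single-symbol probe set need not mean that its gene was dim.

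The sequence CCGGAAG, searched on both strands of the 300 bases from 250 before to 50 after each annotated start, was chosen after the promoters were seen. It was present at a start of 12 of the 41 members with an entry (29.3%), measurable or not, and of 20.1% of measurable genes with one. The 12 members with it had a median difference of -0.20 and the 27 measurable members without it -0.14. Over all measurable genes with an entry, 64.2% of 2209 with the sequence were lower in the CA9 line, with a median of -0.11, against 52.6% of 8792 without it, with a median of -0.03. This describes 1 pair of arrays, and it was not tested. CACGTG, the core of the E-box, was present at a start of 11 of the same 41 members (26.8%), EIF4E and EIF4G1 included. Of measurable genes with an entry, 12.3% had it.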
